A study of Mus musculus with 4 samples.

Results

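The interferon-gamma-induced GTPases Gbp2, Gbp3, Gbp6, Gbp7, Igtp, Irgm1, Irgm2 and Tgtp1 were followed on 4 Affymetrix arrays of mouse distal colon. Members were all probe sets that the platform's annotation gives to 1 gene with 1 of these symbols. Of the 8 listed genes, 7 had such a probe set, 10 probe sets in all, among 18194 genes with a probe set of their own. Tgtp1 had none, since its 1 probe set was annotated to Tgtp2 as well, and its level is not described. All 10 member probe sets lay above the array median on every array, so all passed the filter on dim probe sets, which left 12189 genes.

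Each array held total RNA from the distal colon of 1 mouse. The mice were wild type for Adamts12 (WT) or deficient in it (KO), and treatment began at 8 to 10 weeks of age. DSS (dextran sodium sulfate), which damages the lining of the colon, was given at 2% in drinking water to 1 WT and 1 KO mouse, while 1 mouse of each genotype received none. The labels give the DSS period as 7 days in one place and 8 days in another, with 1 day without DSS after it. The strain, the sex and the part of Adamts12 that was removed are not given in the sources used here. With 1 array in each of the 4 groups, a difference between 2 arrays has no replicate check, and the number of arrays limits the precision.

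Guanylate-binding proteins (GBPs) and immunity-related GTPases (IRGs) are large GTPases that cells make when interferon-gamma, released mainly by T cells, NK cells and innate lymphoid cells, binds its receptor. They gather on the vacuoles and membranes around intracellular bacteria and parasites and help to destroy them. Irgm1, Irgm2 and Igtp (also called Irgm3) belong to the regulatory IRGs, which sit on the cell's own membranes and hold effector IRGs such as Tgtp1 inactive there. In the gut these genes are made in epithelium, macrophages and lymphocytes.

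The promoters are shown because the members are grouped by a common inducer, and the strand on which an element near the start reads differs by family. The gamma-activated sequence (GAS) and the interferon-stimulated response element (ISRE), which IRF1 can bind, are the elements known from interferon-induced promoters. Cores searched were TTCNNNGAA for GAS, which reads the same on both strands, and GAAANNGAAA or its reverse complement TTTCNNTTTC for ISRE, where N is any base. Of the 8 listed genes, 7 had an entry in RefSeq's promoter table, and Gbp6 had no entry. The lines below give, for the 6 members with both an entry and a value, the 250 bases before the annotated start on build GRCm38.p6, 5′ to 3′ on the gene's strand. Capitals mark GAS and ISRE matches.
Gbp2, chr3:142620413-142620662, plus strand: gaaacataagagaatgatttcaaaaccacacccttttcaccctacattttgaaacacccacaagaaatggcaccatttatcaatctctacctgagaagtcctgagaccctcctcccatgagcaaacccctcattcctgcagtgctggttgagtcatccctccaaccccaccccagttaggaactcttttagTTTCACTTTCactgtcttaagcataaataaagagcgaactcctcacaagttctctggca
Gbp3, chr3:142559794-142560043, plus strand: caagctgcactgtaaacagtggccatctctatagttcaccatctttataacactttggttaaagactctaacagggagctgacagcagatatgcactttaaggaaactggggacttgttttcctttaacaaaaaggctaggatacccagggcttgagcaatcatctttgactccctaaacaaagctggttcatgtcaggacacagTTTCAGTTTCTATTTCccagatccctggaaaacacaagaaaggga
Gbp7, chr3:142530086-142530335, plus strand: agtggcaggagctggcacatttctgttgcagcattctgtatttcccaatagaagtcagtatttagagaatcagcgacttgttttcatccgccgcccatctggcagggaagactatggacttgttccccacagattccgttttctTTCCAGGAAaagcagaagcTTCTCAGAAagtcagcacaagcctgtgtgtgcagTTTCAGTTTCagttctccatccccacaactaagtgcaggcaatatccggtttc
Igtp, chr11:58199306-58199555, plus strand: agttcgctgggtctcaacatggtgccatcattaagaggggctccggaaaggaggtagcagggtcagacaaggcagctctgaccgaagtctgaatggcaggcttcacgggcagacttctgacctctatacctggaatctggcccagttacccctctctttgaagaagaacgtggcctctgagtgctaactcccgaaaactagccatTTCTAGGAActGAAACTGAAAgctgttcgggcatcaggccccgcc
Irgm1, chr11:48871421-48871670, minus strand: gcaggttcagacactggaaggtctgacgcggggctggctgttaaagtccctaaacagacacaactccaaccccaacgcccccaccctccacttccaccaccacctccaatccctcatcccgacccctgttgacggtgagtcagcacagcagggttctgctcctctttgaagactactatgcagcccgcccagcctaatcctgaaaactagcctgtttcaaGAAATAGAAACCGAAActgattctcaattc
Irgm2, chr11:58214727-58214976, plus strand: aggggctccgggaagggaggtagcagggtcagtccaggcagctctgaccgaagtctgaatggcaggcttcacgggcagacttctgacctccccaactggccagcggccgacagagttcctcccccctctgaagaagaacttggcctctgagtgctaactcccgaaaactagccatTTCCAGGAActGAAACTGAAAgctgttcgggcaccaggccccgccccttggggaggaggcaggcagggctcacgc

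All 7 genes had an ISRE core before a start, against 2.98% of the 32851 promoters in the table. GAS cores lay before 4 of the 7 genes, Gbp7, Igtp, Irgm2 and Tgtp1, against 7.02% of promoters. In the GBP genes the ISRE read as TTTCNNTTTC on the gene's strand, from base 59 before the start in Gbp2, 53 in Gbp7, and 45 and 39 in Gbp3, where 2 matches overlap. Gbp3 had a further annotated start with no match before it. In the IRG genes it read as GAAANNGAAA, from base 34 before the start in Igtp, 64 in Irgm2, and 30 and 24 in Irgm1, where 2 matches again overlap. Igtp and Irgm2, which are neighbours on chromosome 11, had a GAS core that ended 2 bases before the ISRE, and so did Tgtp1. That spacing, singled out after the matches were seen, was found before 5 genes of the table, Igtp, Irgm2, Tgtp1, Tgtp2 and the gene model Gm12185. In Gbp7 the ISRE was 44 and 25 bases from its GAS matches. A match describes letters in a window and is not a measured binding site.

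**Figure D1:**
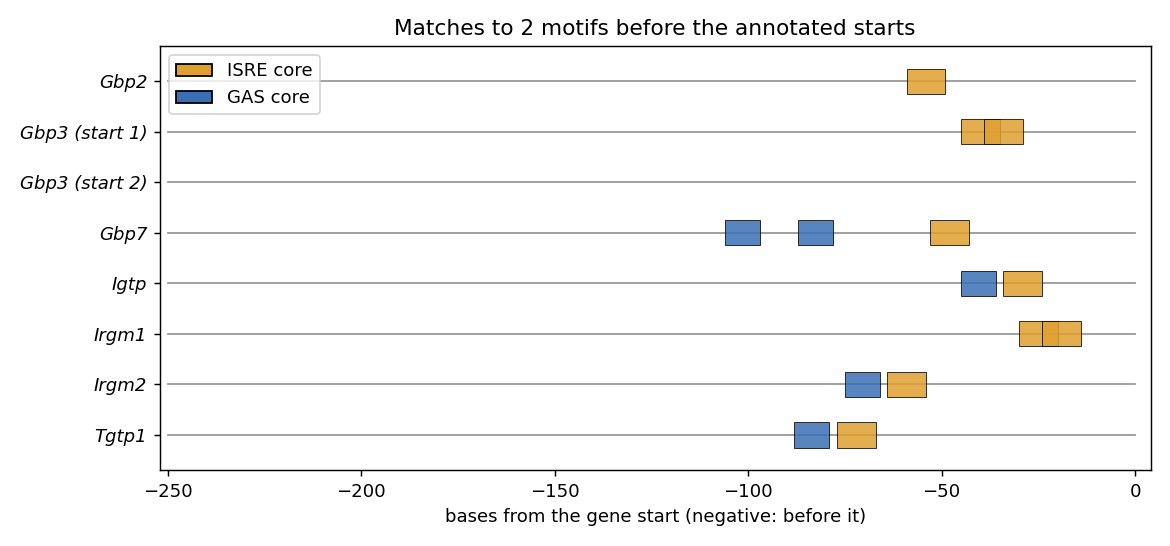
Positions of ISRE cores (orange) and GAS cores (blue) in the 250 bases before each annotated start, with distance from the start in bases on the x axis and 1 line per start. All 7 genes carry an ISRE within the last 77 bases before a start, and Igtp, Irgm2 and Tgtp1 have a GAS directly before it.

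The arrays were checked before the members were compared. Column medians lay between 3.42 and 3.46 on the log2 scale. The brighter Adamts12 probe set read 2.18 on both WT arrays and 1.42 and 1.41 on the untreated and DSS KO arrays, and the other lay between 0.71 and 0.97, so the genotypes are checked only weakly. All 12 epithelial markers were measured, with a mean log2 value between 10.16 and 10.58. The untreated KO array stood apart in position along the gut. The mean over 9 markers of small intestine and proximal colon was 8.05 there and 2.70 to 3.67 on the other arrays. Of these markers, Slc10a2, Slc51a and Osr2 passed the filter on dim probe sets only through the untreated KO array, so they could not have been lower there. The other markers of the list, which also passed through another array, were highest there too. The mean over 7 posterior Hox genes was 3.69 in untreated KO, 4.35 in WT with DSS, 5.11 in KO with DSS and 6.003 in untreated WT. The WT DSS array was also low in some posterior Hox genes, with Hoxd10 at 2.37 and Hoxd11 at 2.68 lower there than on any other array. Hoxd11 was above the array median only in untreated WT. Others of the list were not lowest in WT with DSS, such as Hoxb13 (7.84, against 2.48 in untreated KO) and Hoxa11 (4.98, against 4.27 in untreated WT). DSS differences in KO are therefore also given with the untreated WT array as reference. The KO minus WT differences without DSS, the difference between the DSS effects and the limma effects all use the untreated KO array.

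Gbp2, a GBP that coats vacuoles around intracellular bacteria, had its own pattern. Its brighter probe set (1435906_x_at) read 8.41 on the untreated WT array, 6.45 on the untreated KO array, 7.47 on the WT DSS array and 8.28 on the KO DSS array. Its other probe set (1418240_at) read 7.74, 5.92, 7.03 and 7.67 in the same order. Both were lowest in the untreated KO colon, next lowest with DSS in WT, and nearly level on the untreated WT and KO DSS arrays. The KO minus WT log2 difference without DSS was -1.96 and -1.82 by probe set, the lowest of any member. An identifier ending in _x_at marks probes that can match similar transcripts, and the other probe set, without that mark, gave the same order of arrays.

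Gbp3, Gbp7 and Gbp2 lie side by side on chromosome 3 with Gbp2b between Gbp3 and Gbp2, but the neighbours did not share Gbp2's low value in untreated KO. Gbp3, another vacuole-targeted GBP (1418392_a_at), read 7.31 in untreated WT, 7.13 in untreated KO, 6.81 in WT with DSS and 7.88 in KO with DSS. Gbp7, which is linked to assembly of the phagocyte oxidase, read 7.32, 7.40, 6.47 and 8.22 on its brighter probe set (1434380_at) and 6.15, 6.42, 5.75 and 6.70 on the other (1425156_at). For both genes the KO DSS array was the highest and the WT DSS array the lowest, and the untreated arrays lay close together between them.

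Gbp6, from the other GBP cluster on chromosome 5, was higher on both KO arrays than on both WT arrays. The brighter probe set (1447927_at) read 5.96 in untreated WT, 7.09 in untreated KO, 5.82 in WT with DSS and 7.71 in KO with DSS. The other (1438676_at) read 4.83, 6.08, 4.26 and 5.83. The probe sets disagreed on the DSS difference in KO, which was 0.62 on the first and -0.25 on the second.

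The 3 regulatory IRGs had 1 order on the 4 arrays. Igtp, found at the endoplasmic reticulum and on lipid droplets (1417141_at), read 7.54 in untreated WT, 8.60 in untreated KO, 7.50 in WT with DSS and 8.31 in KO with DSS. Irgm1, which is required for resistance to mycobacteria (1418825_at), read 7.78, 8.46, 7.48 and 7.91. Irgm2, a Golgi-associated regulator (1417793_at), read 7.10, 7.61, 6.76 and 7.46. For each of them the order from low to high was WT with DSS, WT untreated, KO with DSS and KO untreated. Neighbouring levels in these orders have no spread to be set against.

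**Figure D2:**
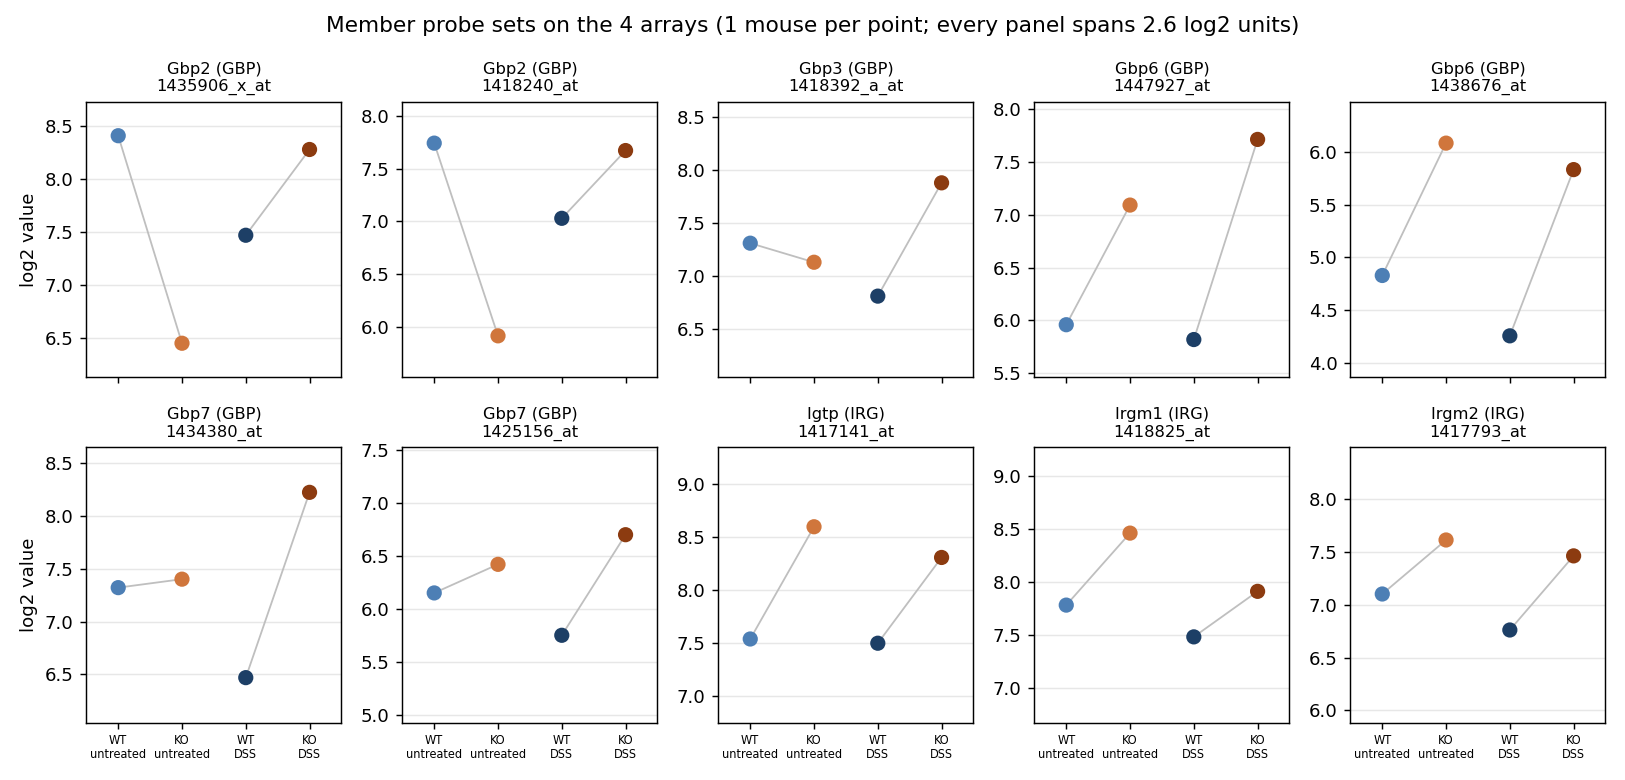
Log2 values of the 10 member probe sets (1 panel each, y axis) on the 4 arrays (x axis), 1 mouse per point, with grey lines joining WT to KO of the same treatment. Gbp2 drops to 6.45 and 5.92 in untreated KO, while Gbp6 and the IRGs are higher on the KO array in both treatments.

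With DSS in WT, every member was lower, and none by 2-fold. The log2 differences of the 7 genes, each taken from its brightest probe set, ran from -0.94 (Gbp2) to -0.04 (Igtp), with a median of -0.34 against -0.01 over all genes. At 2-fold, the shares over all genes were 5.82% higher and 4.96% lower. Of all genes, 50.0% were lower and 48.5% higher by any amount. The median was -0.68 for the 4 GBPs and -0.30 for the 3 IRGs.

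With DSS in KO, the families went opposite ways. All 4 GBPs were higher, by 0.62 (Gbp6), 0.75 (Gbp3), 0.82 (Gbp7) and 1.83 (Gbp2), while the log2 differences of Irgm2, Igtp and Irgm1 were -0.15, -0.29 and -0.55. Of all genes, 53.6% were higher and 45.4% lower by any amount. The 4 GBPs were thus lower with DSS in WT and higher in KO, as were 22.6% of all genes, and the 3 IRGs were lower in both genotypes, as were 26.9%. Gbp2 was the 1 member at least 2-fold higher, against 10.8% of all genes, and no member was 2-fold lower, against 6.68%. The members' median of 0.62, set against 0.06 over all genes, became 0.19 when a gene's probe sets were averaged. With the untreated WT array as the reference for the KO DSS array, which leaves out the array that stood apart, Gbp2 turned to -0.13. On that comparison Irgm1, Irgm2 and Igtp turned to 0.13, 0.36 and 0.77, and Gbp3, Gbp7 and Gbp6 were at 0.57, 0.90 and 1.75. Gbp6 was then the 1 member at least 2-fold higher, against 6.14% of all genes, and none was 2-fold lower, against 5.05%. The opposite directions of the families with DSS in KO therefore rest on the untreated KO array.

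The DSS difference in KO minus that in WT was above 0 for each GBP, at 2.77 for Gbp2, 1.67 for Gbp7, 1.25 for Gbp3 and 0.76 for Gbp6. It was -0.25 for Igtp and Irgm1 and 0.19 for Irgm2. On the other Gbp7 probe set it was 0.68, under 2-fold. At least 2-fold values were seen for 3 of 4 GBPs and 0 of 3 IRGs, against 12.3% of all genes, and no member was 2-fold lower, against 5.91%. Values above 0 were seen for 49.8% of all genes and below 0 for 49.4%. With 1 array a group this difference was not tested, and it uses the untreated KO array.

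Without DSS, KO minus WT split the GBPs. Gbp6 (1.13) and Igtp (1.06) were at least 2-fold higher and Gbp2 (-1.96) at least 2-fold lower, where 3.43% and 5.99% of all genes were so. Irgm1 and Irgm2 were higher by 0.68 and 0.51. Gbp7 and Gbp3 were near level, at 0.08 and -0.18. Of all genes, 48.3% were higher and 50.7% lower by any amount. The members' median was 0.51 against -0.01 over all genes, with -0.05 for GBPs and 0.68 for IRGs.

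With DSS, all 7 members were higher in KO than in WT, on all 10 probe sets. Of all genes, 45.3% were higher by any amount. The differences were 1.89 for Gbp6, 1.75 for Gbp7, 1.07 for Gbp3, 0.81 for Gbp2 and Igtp, 0.70 for Irgm2 and 0.43 for Irgm1. These are from each gene's brightest probe set, and the other Gbp7 probe set gave 0.95, under 2-fold. At least 2-fold differences were seen for 3 of 7, all GBPs, against 4.22% of all genes, and for none in the lower direction, against 1.21%. The median was 0.81 against -0.02 over all genes, 1.41 for GBPs and 0.70 for IRGs. This comparison does not use the untreated KO array, but these arrays also differed in markers of position and of cell types. KO minus WT with DSS had a median of 0.40 over 7 posterior Hox genes, with 6 higher and 1 lower. Hoxd13 (2.98) and Hoxd10 (1.24) were at least 2-fold higher. Over 9 markers of small intestine and proximal colon the median was -0.86, with 7 lower and 2 higher. Fabp2 (-3.56), Slc13a1 (-2.10) and Isx (-1.57) were at least 2-fold lower. Slc10a2, Slc51a and Osr2 lay under the array median on both DSS arrays, so their directions here are those of dim values. All 7 B cell markers were at least 2-fold higher (median 2.21). Of these, Fcrla passed the filter on dim probe sets only through the KO DSS array, so it could not have been lower there. The part of position and of cell types in the members' differences was not tested.

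**Figure D3:**
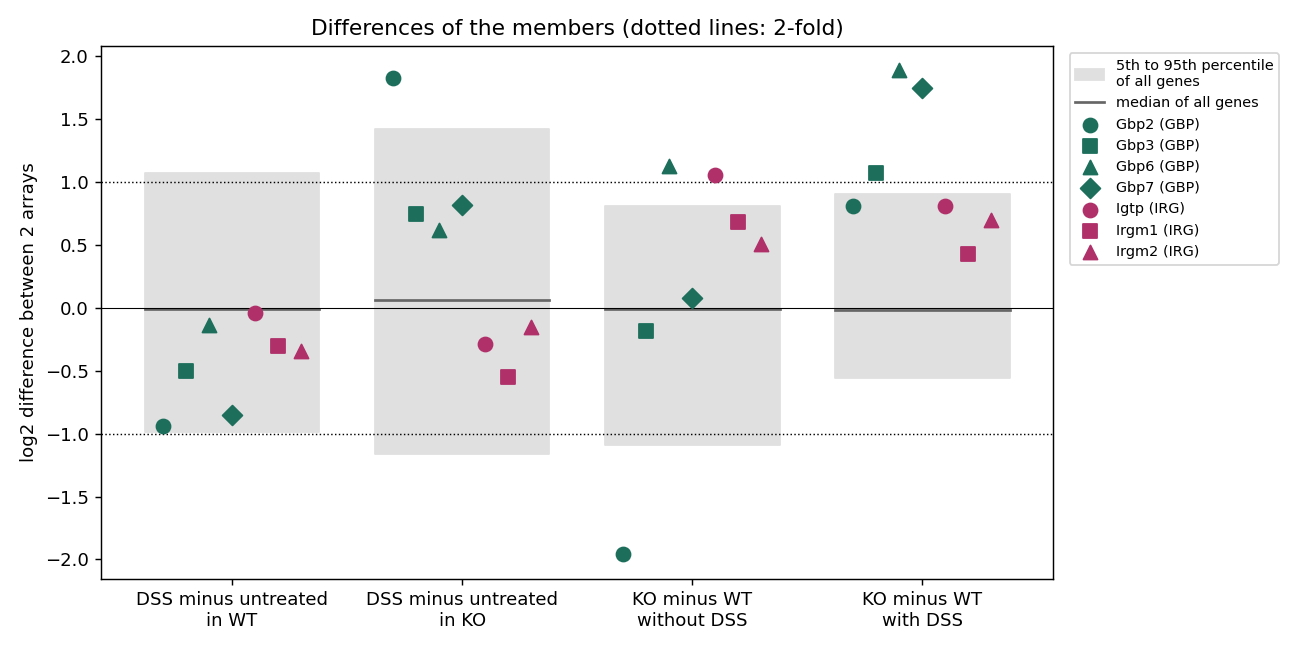
Log2 differences (y axis) of the 7 genes in the 4 comparisons (x axis), GBPs in green and IRGs in pink. Grey boxes run from the 5th to the 95th percentile of all 12189 genes, with grey lines at their medians. With DSS, all 7 lie above 0 in KO minus WT, and without DSS Gbp2 lies at -1.96.

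Over both treatments, 5 of the 7 (Gbp6, Gbp7, Igtp, Irgm1 and Irgm2) were higher in KO each time, against 16.6% of all genes. Gbp6 was the 1 member at least 2-fold higher each time, against 0.197%. In an additive model fitted to all 4 arrays with limma, which takes the treatment effect as the same in both genotypes, the KO effect of Gbp6 was 1.51 (SE 0.30, unadjusted p = 0.0094, adjusted p = 0.9995, higher in 2 of 2 pairs). That of Igtp was 0.94 (SE 0.24, limma's unadjusted p = 0.0199, adjusted p = 0.9995, higher in 2 of 2 pairs). For Gbp2, with pairs that went opposite ways, it was -0.58 (SE 0.76). No gene of 12189 passed limma's test at an adjusted p under 0.05 for KO or for DSS. Before adjustment, limma's p was under 0.05 for 175 genes in the KO test (1.44%), 2 of them members, and for 1437 in the DSS test (11.8%), none of them a member. The fit left 1 residual degree of freedom, and limma's error combined it with 2.68 prior degrees of freedom estimated from all genes.

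Other GTPases of these families were examined beside the members. Of 13 listed, 5 had a probe set of their own that passed the filter. All 5 were higher in KO in both treatments, against 16.6% of all genes. At least 2-fold differences were seen for Gbp2b, Iigp1 and Ifi47 without DSS, against 3.43% of all genes, and for Gbp2b, Iigp1 and Gbp8 with DSS, against 4.22%. Gbp2b, which lies between Gbp3 and Gbp2, had the widest range, at 3.18 in untreated WT, 6.85 in untreated KO, 2.02 in WT with DSS and 8.39 in KO with DSS. Its KO minus WT differences were 3.67 and 6.37, so in the untreated KO colon Gbp2b was high where its neighbour Gbp2 was low. Gbp2b passed the filter on dim probe sets only through the KO arrays, so it could not have been lower there, and its count supports nothing. Iigp1, an effector IRG, was higher in KO by 1.14 and 1.46, and Ifi47, another IRG, by 1.15 and 0.87. Gm4951 was higher by 0.85 and 0.58 and Gbp8 by 0.39 and 1.11. As in the GBP members, Gbp8 and Gbp2b were lower with DSS in WT (-0.53 and -1.16) and higher with DSS in KO (0.19 and 1.54). Closely related GBP and IRG genes can share probes, so their levels are partly uncertain.

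Among genes that signal from interferon-gamma, the probe set of Ifng itself was dim, at 1.65 in untreated WT, 1.72 in untreated KO, 1.96 in WT with DSS and 3.29 in KO with DSS, below the median of each array. Gbp3, Gbp7 and the brighter Gbp6 probe set were also highest on the KO DSS array. Igtp, Irgm1, Irgm2 and the other Gbp6 probe set were highest in untreated KO instead, and Gbp2 in untreated WT. For scale, Xist read at least 9.68 on each array, and the highest value of the 9 probe sets of Y-linked genes was 1.39. For the 10 signalling genes measured, the median KO minus WT differences were 0.22 without DSS and 0.30 with DSS. Irf1, an interferon-induced transcription factor gene, was higher in KO by 0.49 and 0.78. The receptor genes differed by 0.11 and -0.06 for Ifngr1 and by 0.77 and -0.22 for Ifngr2. The feedback inhibitor gene Socs1, at 1.16 without DSS, was the 1 signalling gene at least 2-fold apart between genotypes. Il18, a cytokine gene that promotes interferon-gamma release, was 5.52 in untreated KO and 8.54 to 8.88 on the other arrays.

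Other interferon-gamma targets were measured for 18 of 20 listed genes. Their KO minus WT median was 0.53 without DSS, with 1 at least 2-fold higher (Cxcl9, 1.28), against 3.43% of all genes. It was 0.25 with DSS, with 4 at least 2-fold higher, against 4.22%. Those 4 were the T cell-attracting chemokine genes Cxcl10 (2.56) and Cxcl9 (2.09), the checkpoint ligand gene Cd274 (1.66) and Ido1 (1.60), which breaks down tryptophan. With DSS, 3 were at least 2-fold higher in WT (Nos2, Cxcl11 and Ido1), against 5.82% of all genes, and 6 in KO, against 10.8%. Set against the untreated WT array, 6 were also at least 2-fold higher in KO with DSS, against 6.14%. Nos2 passed the filter on dim probe sets only through the DSS arrays, so it could not have been lower there. The immunoproteasome gene Psmb9 was higher in untreated KO by 0.97 and differed by -0.02 with DSS.

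Antiviral genes induced by type I interferon, whose promoters use the ISRE, were high in untreated KO and not in KO with DSS. All 20 measured were higher in KO without DSS, against 48.3% of all genes, and 11 of them at least 2-fold, against 3.43%. The median of KO minus WT over these genes was 1.02. With DSS it was -0.09, and 1 gene was at least 2-fold higher (Ifit3, 1.00), against 4.22% of all genes. With DSS in KO, all 20 were lower, 13 at least 2-fold, against 6.68% of all genes. Set against the untreated WT array, none of the 20 was 2-fold lower in KO with DSS, against 5.05% of all genes. On that comparison 1 was 2-fold higher, against 6.14%, and the median over the 20 was -0.37. The largest differences against the untreated KO array were -2.77 for Ifi27l2a, -2.40 for Irf7 and -2.05 for Oas3. The IRG members, lower by 0.15 to 0.55 on the same pair of arrays, went the same way by less, and the GBP members the other way. With the untreated WT array as reference, the 3 IRGs were higher instead, by 0.13 to 0.77, and 13 of the 20 antiviral genes were lower. The median of all genes on that comparison was 0.02.

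Immune cell markers moved with some of these differences. In bulk tissue, fewer cells of a type and less RNA per cell cannot be told apart. The mean over 7 of 9 listed B cell markers was 5.08 in untreated WT, 3.60 in untreated KO, 3.89 in WT with DSS and 5.97 in KO with DSS, so it was low where Gbp2 was low. The B cell surface gene Ms4a1 read 6.66, 4.10, 4.72 and 7.29. All 7 B cell markers were lower in untreated KO, higher with DSS in KO and lower with DSS in WT, the directions of Gbp2. Fcrla passed the filter on dim probe sets only through the KO DSS array, so it could not have been lower there. The mean over posterior Hox genes, at 6.003, 3.69, 4.35 and 5.11, had the same order of arrays as Gbp2. The mean over 12 of 19 T and NK cell markers was 4.60, 5.20, 4.47 and 4.70. The mean over 12 of 14 macrophage and monocyte markers was 6.02, 6.18, 5.76 and 6.045. Both means were highest in untreated KO as for the IRGs. With DSS, the median KO minus WT differences of these lists were 0.03 and 0.135, against 0.70 for the IRGs. The mean over 7 endothelial markers was 4.40 in KO with DSS and 3.77 to 3.84 elsewhere. That over 8 of 10 neutrophil markers was 5.62 in KO with DSS and 2.54 to 3.89 elsewhere. Of these, Cdh5, Tie1, Mmp8 and Clec4d passed the filter on dim probe sets only through the KO DSS array. Tek, S100a8, S100a9 and Mmp9 passed only through the DSS arrays. They could not have been lower there, so the filter itself raised both means in KO with DSS in part. The part of these cell types and of position along the gut in the members' differences was not tested.

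**Figure D4:**
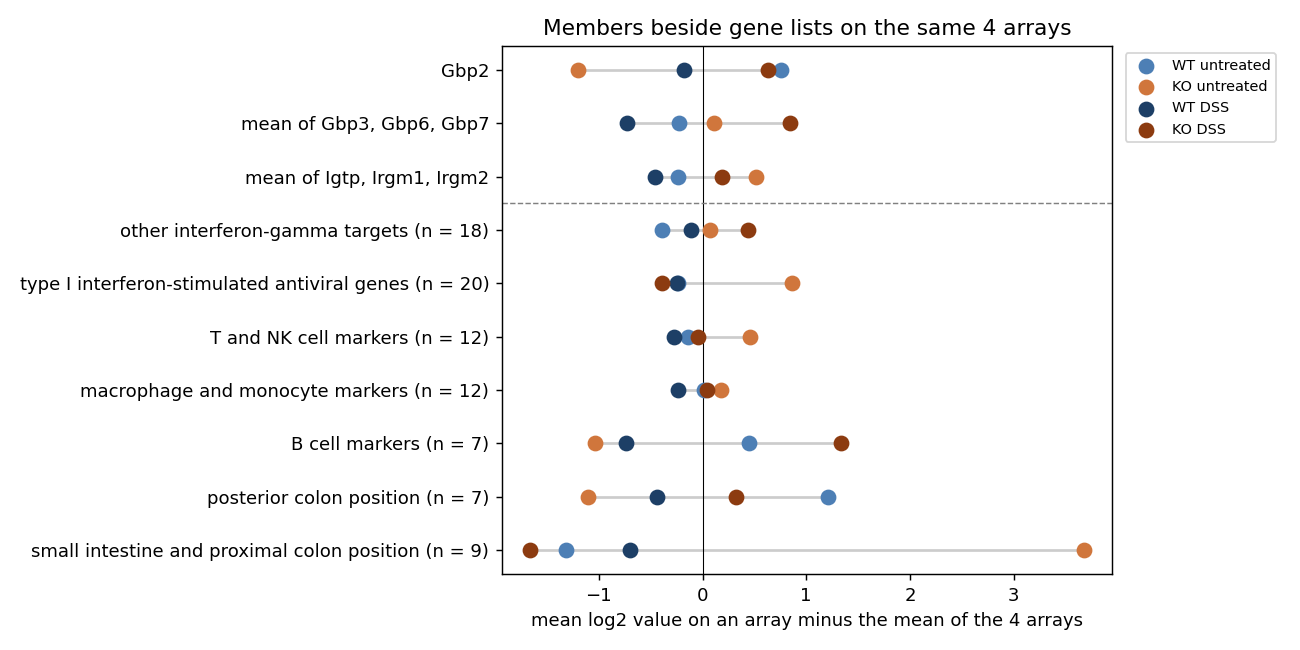
Mean log2 value on each array minus the mean of the 4 arrays (x axis) for members (above the dashed line) and for gene lists with the number of genes measured (below it), 1 point per array. Gbp2, B cell markers and posterior Hox genes are lowest in untreated KO. The 3 IRGs and type I interferon-stimulated genes are highest there. So are T and NK cell, macrophage and monocyte, and small intestine and proximal colon markers.

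The genes whose pattern was most like the members' were sought over the 4 arrays, as the root mean square distance between a gene's values, centred on their own mean, and the median centred profile of the 7 members. That profile was -0.13 in untreated WT, 0.38 in untreated KO, -0.47 in WT with DSS and 0.60 in KO with DSS. The 5 nearest genes with a name of their own were Abca5 (distance 0.10), H2-Eb2 (0.11), Ppp1r16b (0.12), Gbp8 (0.12) and Tyrobp (0.13). Abca5 passed the filter on dim probe sets only through the KO arrays, so it could not have been lower there. Among members the distance ran from 0.19 for Irgm2 to 0.92 for Gbp2, so Gbp2 lay farther from the common profile than any other member.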

How the data were processed

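The authors' deposited values, 1 per probe set and array, are read as log2, since the top value of 13.23 would stand for 556821 if it were a natural log, more than the 65535 a 16-bit scanner can record. Summarization and normalization are not given in the sources used here, and values were used as deposited. Per the labels' protocols, Trizol was used to extract RNA, and biotinylated cRNA was hybridised. Of 45101 probe sets (64 controls), 34945 had 1 symbol, 932 several and 9160 none. Symbols were updated by Entrez number through RefSeq (34741 matched). Probe sets above the array median on 1 or more arrays were kept, and the one with the highest mean stood for its gene. Pairs of arrays were compared by log2 difference with no test, and a gene was counted when at least 2-fold apart. DSS and KO effects were tested with limma 3.58.1 in R 4.3.3 (lmFit, eBayes with an intensity trend, two-sided, Benjamini-Hochberg over 12189 genes, threshold 0.05), after a check on simulated data. The named genes were the members, Ifng, its receptors, Irf1, the other GTPases, up to 4 per list by size of difference, and the 5 nearest patterns. Psmb9, Ms4a1 and the markers beside Gbp2 were singled out after their values were seen. Gene models without a name were left out of the nearest patterns after seeing the data. Members and lists were chosen with earlier results of these data known. Python 3.11.15, pandas 2.3.3, numpy 2.4.6 and matplotlib 3.10.9 were used.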

Additional observations from a re-analysis of the deposited data

Results flagged for a closer look

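Effects of opposite sign under the same contrast drew a closer look at 4 GBP genes and at the members' median. With 1 array per group, none of these differences was tested. DSS minus untreated was -0.94 in WT and 1.83 in KO for Gbp2, -0.50 and 0.75 for Gbp3, -0.14 and 0.62 for Gbp6, and -0.85 and 0.82 for Gbp7. The other Gbp6 probe set gave -0.57 in WT and -0.25 in KO, with no change of sign. Gbp2 in KO with DSS was at -0.13 when set against the untreated WT array. The median over the 7 members was -0.34 in WT and 0.62 in KO. KO minus WT was -1.96 without DSS and 0.81 with DSS for Gbp2, and -0.18 and 1.07 for Gbp3. Both contrasts are read from the same 4 values, so they are 1 pattern.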

How the results depend on the processing

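Alternatives were quantile normalization, median centring, other filters and probe set rules, thresholds of 1.5-fold and 3-fold, limma without the covariate or the trend, the untreated WT array as reference for KO with DSS, and leaving out each array. The other filters kept the brightest probe set of every member, so they could not change a member's difference. The probe set rules could change only members with more than 1 probe set. Many of the differences counted next were therefore fixed, and their number is no measure of stability. Of 175 differences of single members recomputed, 168 moved by less than the spread between probe sets of a gene, 6 by more, and 1 that was at least 2-fold apart turned its sign. This was Gbp2 with DSS in KO, at -0.13 against the untreated WT array. Smaller differences turned with that reference too, to 0.77 for Igtp, 0.13 for Irgm1 and 0.36 for Irgm2. There 748 genes in all were at least 2-fold higher. Averaging probe sets gave a members' median of 0.185 with DSS in KO. The 75th percentile filter left 329 genes higher in KO with DSS. At 1.5-fold, members were 2 lower with DSS in WT, 4 higher with DSS in KO and 6 higher in KO with DSS. All genes then numbered 1625 higher and 1564 lower with DSS in WT, 2755 and 1842 with DSS in KO, 1186 and 1885 in KO without DSS, and 1202 and 554 in KO with DSS. At 3-fold, 0 members were higher in KO without DSS, and all genes numbered 187 and 193, 450 and 322, 156 and 247, and 153 and 52 in the same order. Limma called 1 gene for DSS with quantile normalization and 1 gene without the covariate, neither a member. The median DSS effect of the members over the 4 arrays was -0.02, and leaving out 1 array, which gives a value with no test, moved it between -0.34 and 0.62. The median KO effect was 0.61, and between 0.51 and 0.81 in the same way. No paired analysis was possible because each group had 1 array and the labels give no replicate numbers. Without replicate arrays or detection calls, the error of a single value is unknown.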

Other observations

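Genes of the autophagy conjugation machinery, which is needed to load GBPs and IRGs onto vacuoles, were measured for 12 of 12 listed. None was at least 2-fold apart in any of the 4 comparisons, where 1.21% to 10.8% of all genes were 2-fold apart in a given direction. Their median differences were -0.28 with DSS in WT, -0.13 with DSS in KO, -0.08 for KO without DSS and -0.01 for KO with DSS. Map1lc3b, which encodes the vesicle marker LC3B, was higher on the untreated WT (9.29) and KO DSS (9.11) arrays than on the others (8.44 and 8.42). Gbp2 was also higher on those arrays. Others of the list differed, such as Atg5, lowest in KO with DSS (5.93), and Sqstm1, highest in untreated KO (8.96).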
